A study of Mus musculus with 2 samples.

Results

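The 10 genes Gfap, Vim, Nes, Aqp4, Gja1, S100b, Slc1a2, Slc1a3, Glul and Aldoc encode the filament proteins, the water channel, the gap junction protein, the calcium-binding protein, the glutamate transporters and the metabolic enzymes by which astrocytes and radial glia are commonly recognised. They were taken by gene symbol, 10 of the 32285 genes counted, and each symbol matched 1 gene identifier in both libraries. Their transcripts were followed through the cell classes of the dentate gyrus of mice aged 5 postnatal days, in 1 Setdb1_cKO library and 1 control library. Setdb1 encodes an enzyme that trimethylates lysine 9 of histone H3, a mark of silenced chromatin, and cKO is short for conditional knockout. The control mice were labelled wild type, and both libraries were made from dissected and dissociated dentate gyri with the 10x Genomics 3′ version 3 kit. The Cre driver, the deleted exons, the strain and the number of animals behind each library do not appear in the labels used here.

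Radial glia are the stem cells of the developing dentate gyrus: they divide, give rise to granule neurons through intermediate progenitors, and also turn into astrocytes. Both cell types carry intermediate filaments. Vim (vimentin) and Nes (nestin) are the filament proteins of immature, dividing glia, and Gfap (glial fibrillary acidic protein) is the filament protein of adult-type neural stem cells and of many astrocytes. Aqp4 is the water channel of astrocyte endfeet, Gja1 encodes connexin 43, which couples astrocytes to each other, and S100b is a calcium-binding protein of maturing astrocytes. Slc1a2 (GLT-1) and Slc1a3 (GLAST) take up glutamate, Glul (glutamine synthetase) turns it into glutamine, and Aldoc is the brain form of the glycolytic enzyme aldolase. In the rodent brain, loss of methylation at CG dinucleotides of the Gfap and S100b promoters is a known step of astrocyte formation.

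The promoters of Gfap and S100b are shown because both genes were higher in Setdb1_cKO radial glia-like cells, and that of Slc1a3 because it is a glial gene that was not. Each is the 250 bases before the RefSeq start in GRCm38.p6, read 5′ to 3′ on the gene's strand, with CG dinucleotides in capitals. Gfap lies at chr11:102897201-102897450 on the minus strand, S100b at chr10:76253586-76253835 on the plus strand and Slc1a3 at chr15:8710808-8711057 on the minus strand, and no annotated exon reaches into these windows. The Gfap window lies inside the span annotated for the gene, which includes a start farther upstream.
Gfap: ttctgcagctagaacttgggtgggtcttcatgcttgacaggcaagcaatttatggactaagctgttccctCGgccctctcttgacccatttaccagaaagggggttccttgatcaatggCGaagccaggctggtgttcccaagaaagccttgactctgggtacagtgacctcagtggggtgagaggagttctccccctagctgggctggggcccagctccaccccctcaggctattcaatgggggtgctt
S100b: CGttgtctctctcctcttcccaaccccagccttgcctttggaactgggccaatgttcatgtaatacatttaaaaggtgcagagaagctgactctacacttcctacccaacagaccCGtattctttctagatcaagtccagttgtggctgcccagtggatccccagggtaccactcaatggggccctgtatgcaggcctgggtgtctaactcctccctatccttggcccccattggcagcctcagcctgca
Slc1a3: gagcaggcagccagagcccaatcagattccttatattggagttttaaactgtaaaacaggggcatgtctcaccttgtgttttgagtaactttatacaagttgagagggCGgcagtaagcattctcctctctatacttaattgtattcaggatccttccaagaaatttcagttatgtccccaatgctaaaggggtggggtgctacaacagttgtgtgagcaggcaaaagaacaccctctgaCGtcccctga
Each of the 3 windows held 2 CG dinucleotides. Over 32851 RefSeq promoters the median was 6, 92.1% held at least 1, and 18.8% held fewer than 2. Among the other members with a promoter window, Slc1a2 held 1, Gja1 6, Vim 8, and Nes and Glul 15 each. Aldoc held 5 and 3 at its 2 starts. Aqp4, which was also higher in Setdb1_cKO, had no window. The Vim and Glul windows lay wholly within an annotated exon, that of Glul in an exon of another gene. The Slc1a2 window lay inside the span of its gene. Of the genes higher in Setdb1_cKO, Gfap and S100b thus held 2 each and Glul 15, while Slc1a3, which was not higher, held 2. The letters TTCNNNGAA, bound by STAT factors, are in 7.02% of promoters and were found on either strand in the Slc1a3 window (1 match) but not in those of Gfap and S100b. The NFI core letters TTGGC is in 41.5% of promoters and was found 3 times in the S100b window, while TATAAA is in 12.4% and was found once in that of Slc1a3. The full NFI palindrome was in none of the 3 windows. These matches are letters in a window and not measured binding. Bases outside the 250 of each window were not searched. Whether the CG dinucleotides shown are those that lose methylation in astrocyte formation is not known here.

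In GRCm38 the genes are protein coding and lie apart from each other, at chr11:102887336-102900912 (Gfap), chr2:13573927-13582826 (Vim), chr3:87971078-87980451 (Nes), chr18:15389496-15410982 (Aqp4), chr10:56377330-56402513 (Gja1), chr10:76253853-76261159 (S100b), chr2:102658659-102790784 (Slc1a2), chr15:8634124-8710764 (Slc1a3), chr1:153899944-153909723 (Glul) and chr11:78322968-78327781 (Aldoc). Aqp4, S100b, Slc1a2 and Glul each overlap a counted gene on the other strand, and since the strand setting of the counting is not stated, a few of their reads may be shared.

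The Setdb1_cKO library held 12060 barcodes with 87845965 unique molecular identifiers (UMIs, counts of single transcripts), and the control library held 14397 barcodes with 82393428 UMIs. After filtering, 9362 Setdb1_cKO cells (median 6980 UMIs) and 10807 control cells (median 5928 UMIs) were kept. The libraries shared 68 barcode sequences. Setdb1 itself had 17.8 CPM (UMIs scaled to a common total per class) in Setdb1_cKO radial glia-like cells and 54.4 CPM in control ones, a ratio of 0.327 (0.264 to 0.402); whether 3′ counting covers the deleted exons is not known here. The Setdb1_cKO library held 94186 Xist and 0 Ddx3y UMIs, and the control library 16 and 4185, so sex and genotype cannot be told apart. Each genotype had 1 library: no difference below was tested between genotypes, and every interval is a 95% interval, exact unless stated, that covers counting error only. A gene is called higher or lower where the Setdb1_cKO CPM was at least 1.5-fold away from that of control.

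Cells were assigned to classes by marker genes that include none of the 10 genes. Glia were first gated on genes shared by radial glia and astrocytes, giving 2030 Setdb1_cKO and 3086 control cells. They were then divided by the share of astrocyte markers among their radial glia and astrocyte marker UMIs: below 40% they are called radial glia-like (892 Setdb1_cKO and 1173 control cells), from 60% astrocyte-like (620 and 1318), and in the middle intermediate glia (482 and 453). This is a range and not a pair of separate types: 129 Setdb1_cKO and 156 control radial glia-like cells lay within 5 points of the 40% boundary. At 20 CPM or more stood 11 of 13 radial glia markers in the radial glia-like class and 13 of 14 astrocyte markers in the astrocyte-like class. Because the same markers set the split, this shows that they were detected and is no check of the names. Aqp4 was among the 10 genes that most set the astrocyte-like class apart from the other cells. When all cells were also clustered jointly without the 10 genes, most radial glia-like cells of each library fell in a cluster of their own: 606 of 892 Setdb1_cKO cells in one that held 988 Setdb1_cKO and 16 control cells, and 752 of 1173 control cells in one that held 21 and 1112. The same 2 clusters took 294 of 482 Setdb1_cKO and 240 of 453 control intermediate glia. Most astrocyte-like cells of both libraries shared a cluster (390 of 620 in Setdb1_cKO, 947 of 1318 in control). Whether radial glia separated by library or by genotype cannot be told apart.

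**Figure D1:**
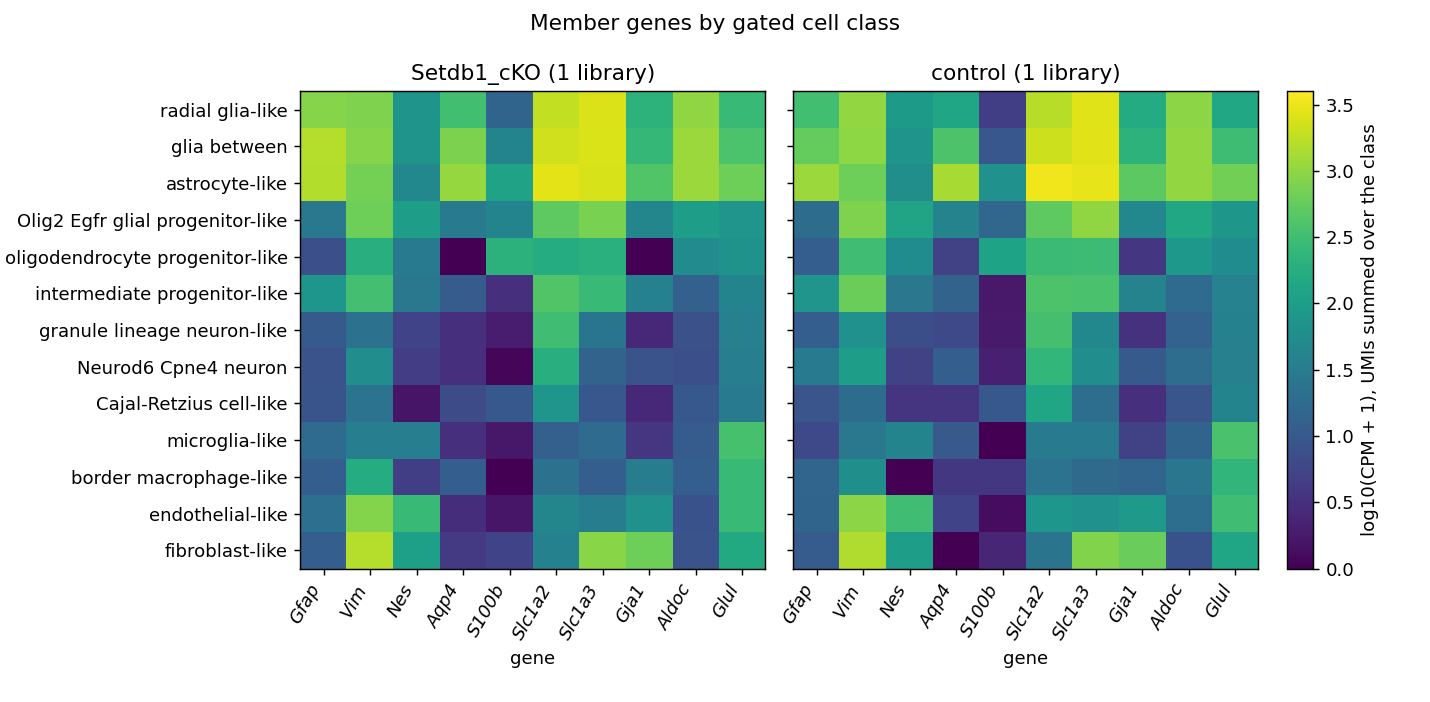
Level of each gene (columns) in each cell class (rows) as log10(CPM + 1), with the Setdb1_cKO library on the left and the control library on the right. Aqp4, Gfap and Aldoc are bright in the upper 3 rows of glia, of which "glia between" is the intermediate glia, whereas Vim, Gja1 and Slc1a3 are bright in fibroblast-like cells as well.

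The plot of levels by class shows 2 kinds of pattern. Aqp4, Aldoc and Gfap were nearly confined to glia: the glial gate held 93.0% of Aqp4 UMIs in the Setdb1_cKO library and 95% in the control library, 92.9% and 91.9% of Aldoc UMIs, and 89.6% and 88.7% of Gfap UMIs. The gate held much less of the filament genes Vim (53.9% in Setdb1_cKO, 49.4% in control) and Nes (43.2% and 39.5%), which vessels and meninges also use.

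Gfap was highest in astrocyte-like cells (1518 CPM in Setdb1_cKO, 1148 CPM in control) and in intermediate glia (1606 and 565 CPM), followed by radial glia-like cells (874 and 326 CPM). The ranges of these 3 neighbours over the libraries overlapped. Outside glia it dropped to 76.8 CPM in Setdb1_cKO and 73.2 CPM in control intermediate progenitor-like cells, and to 17.1 and 5.16 CPM in microglia-like cells. Ependymal-like cells, which line the ventricle, held 429 CPM in Setdb1_cKO and 311 CPM in control, over only 42 and 14 cells.

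Vim was highest in ependymal-like cells (1713 CPM in Setdb1_cKO, 1596 CPM in control) and fibroblast-like cells (1566 and 1490 CPM), where it is the usual filament of mesenchyme. Radial glia-like cells (808 and 1039 CPM), intermediate glia (878 and 963 CPM) and endothelial-like cells (859 and 934 CPM) overlapped below them. Nes peaked in endothelial-like cells, at 270 CPM in Setdb1_cKO and 308 CPM in control, which exceeded its level in the radial glia-like class (72.8 and 91.7 CPM) in both libraries. Both filament genes of immature glia thus had their highest levels outside the range from radial glia to astrocytes.

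Gja1 was likewise higher in fibroblast-like cells (646 CPM in Setdb1_cKO, 606 CPM in control) than in astrocyte-like cells (420 and 490 CPM). S100b was higher in oligodendrocyte progenitor-like cells (207 and 123 CPM) than in astrocyte-like cells (118 and 65.1 CPM). Glul stood at 643 CPM in Setdb1_cKO and 680 CPM in control astrocyte-like cells, and at 351 and 365 CPM in microglia-like cells. In the endothelial-like class it had 267 CPM in Setdb1_cKO and 314 CPM in control.

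The paired glutamate transporters were distributed differently. Slc1a3 was level over the 3 glial classes (2547, 2506 and 2402 CPM in Setdb1_cKO from radial glia-like to astrocyte-like, and 2689, 2773 and 2917 CPM in control) and was also present in fibroblast-like cells (897 CPM in Setdb1_cKO, 826 CPM in control). Slc1a2 increased along the same 3 classes, with 1843, 2183 and 2839 CPM in Setdb1_cKO and 1612, 2146 and 3353 CPM in control. In granule lineage neuron-like cells Slc1a2 kept 317 CPM in Setdb1_cKO and 348 CPM in control, whereas Slc1a3 had 23.7 and 47.6 CPM. The count of Slc1a2 over that of Slc1a3 was 13.4 in Setdb1_cKO and 7.32 in control for these neurons. It was 0.724 and 0.60 for radial glia-like cells, and 0.0419 and 0.0285 for fibroblast-like cells. The part of free glial RNA in the Slc1a2 UMIs of the neurons was not tested.

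**Figure D2:**
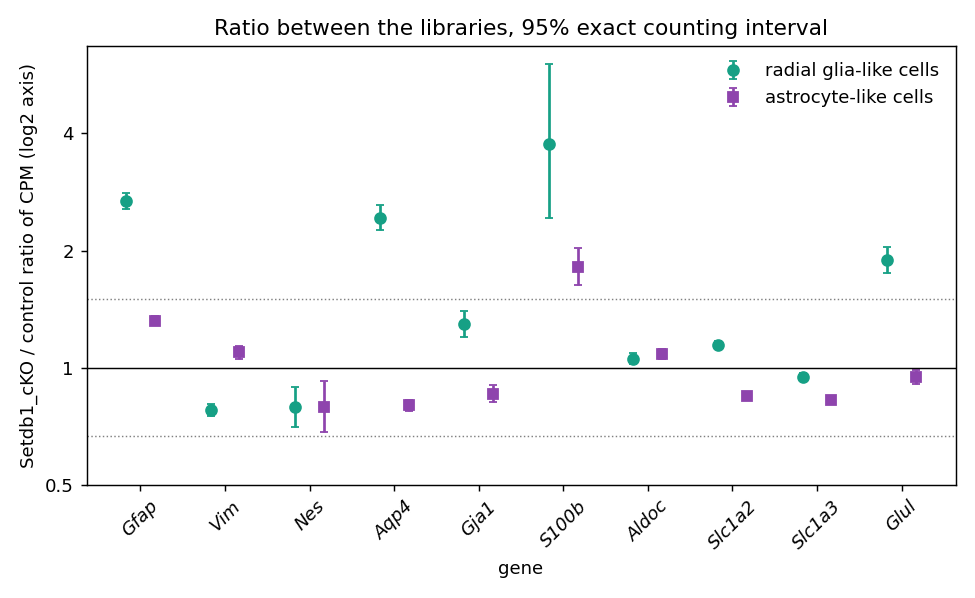
Setdb1_cKO to control ratio of CPM for each gene on a log2 axis, in radial glia-like cells (circles) and astrocyte-like cells (squares), with 95% exact counting intervals. Dotted lines mark 1.5-fold either way: Gfap, Aqp4, S100b and Glul lie above the upper line in radial glia-like cells, and S100b in astrocyte-like cells.

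Radial glia-like cells of the Setdb1_cKO library carried more RNA of 4 of the 10 genes, Gfap, Aqp4, S100b and Glul, and at least 1.5-fold less of 0. Of 12218 genes measured in these cells, 6.02% were as far higher and 6.62% as far lower, and the median log2 ratio was 0.28 for the 10 genes and -0.08 for all genes. These cells lay mostly in different joint clusters in the 2 libraries, as given above. The 4 genes were all higher in astrocyte-like than in radial glia-like cells of both libraries. So were Gja1 and Slc1a2, which stayed within 1.5-fold of control here. The filament genes of immature glia, Vim and Nes, lay slightly below control.

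For the filaments, Gfap had 874 CPM in Setdb1_cKO and 326 CPM in control, a ratio of 2.68 (interval 2.56 to 2.81). Vim had 808 CPM in Setdb1_cKO and 1039 CPM in control, a ratio of 0.778 (0.751 to 0.806). Nes had 72.8 CPM in Setdb1_cKO and 91.7 CPM in control, a ratio of 0.794 (0.705 to 0.893). The adult-type filament gene was therefore above control where the immature ones were below it, and neither Vim nor Nes reached 1.5-fold.

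Aqp4, the water channel, had 324 CPM in Setdb1_cKO and 133 CPM in control, a ratio of 2.43 (2.25 to 2.62). Gja1 had 214 and 165 CPM, a ratio of 1.29 (1.20 to 1.40). S100b was rare, with 91 UMIs in Setdb1_cKO and 27 in control, or 13.6 and 3.61 CPM, and its ratio of 3.77 had a wide interval (2.43 to 6.02). The 3 genes thus lay on the same side, with Gja1 within 1.5-fold.

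In the glutamate cycle the enzyme and the transporters parted. Glul had 271 CPM in Setdb1_cKO and 144 CPM in control, a ratio of 1.89 (1.75 to 2.04). Slc1a2 had 1843 and 1612 CPM, a ratio of 1.14 (1.11 to 1.17), and Slc1a3 had 2547 and 2689 CPM, a ratio of 0.947 (0.928 to 0.967). Aldoc, the aldolase, had 1002 and 951 CPM, a ratio of 1.05 (1.02 to 1.09). The most abundant of the 10 genes in these cells were hence within 1.5-fold of control.

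The astrocyte markers of the gate also set the split, which caps their share in radial glia-like cells. The size of their summed shift can therefore not be compared with those of Gfap, Aqp4, S100b and Glul. The sum of the 14 astrocyte markers in radial glia-like cells was 777 CPM in Setdb1_cKO and 650 CPM in control (ratio 1.19). Of these, 4 were higher and 1 lower, with single ratios from 0.454 to 2.59. The 13 radial glia markers summed to 2290 and 2115 CPM (ratio 1.08), with 3 higher and 3 lower, so a sum near control covers single markers that moved both ways. The part of these marker shifts in the ratios of Gfap, Aqp4, S100b and Glul was not tested. The bins of marker share given below divide the same cells by the same markers and do not test it. Markers of oligodendrocyte progenitors summed to 90 CPM in Setdb1_cKO and 53.0 CPM in control radial glia-like cells, with 1 of 7 at 0 in each library, and those of microglia to 10.6 and 15.9 CPM.

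In astrocyte-like cells S100b was the only one of the 10 genes past 1.5-fold, and 0 were as far lower, beside 6.26% higher and 5.84% lower of 12246 genes. S100b had 118 CPM in Setdb1_cKO and 65.1 CPM in control, a ratio of 1.82 (1.63 to 2.03). Gfap had 1518 and 1148 CPM, a ratio of 1.32 (1.28 to 1.36), and this value was the least steady of the 10 in this class. With at least 3000 UMIs and at most 5% mitochondrial UMIs per cell it was 2.0. Among cells with 0 cell cycle UMIs it was 1.12 (1621 CPM in Setdb1_cKO, 1448 CPM in control). Astrocyte-like cells also held 40.9 CPM of summed oligodendrocyte progenitor markers in Setdb1_cKO and 27.3 CPM in control, and 220.5 and 432 CPM of the 4 markers of Olig2 Egfr progenitors. The 7 border macrophage markers summed to 12.2 CPM in Setdb1_cKO, with 1 at 0, and to 0.824 CPM in control, with 4 at 0. The part of these cells in the S100b ratio was not tested.

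Aqp4 had 1062 CPM in Setdb1_cKO and 1327 CPM in control astrocyte-like cells, a ratio of 0.800 (0.775 to 0.825), so it lay below control here and above it in radial glia-like cells. Both transporters and connexin 43 were also slightly below control, at ratios of 0.847 for Slc1a2, 0.824 for Slc1a3 and 0.856 for Gja1. Glul (ratio 0.946), Aldoc (1.08) and Vim (1.09) were close to control, and Nes had a ratio of 0.794 (0.682 to 0.922). The 14 astrocyte gate markers summed to 2568 CPM in Setdb1_cKO and 3185 CPM in control (ratio 0.806). The split sets a floor on their share here, so the size of this shift cannot be compared with those of Aqp4 and the transporters. The part of this marker shift in the ratios of these genes was not tested.

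Intermediate glia had 3 of the 10 genes higher and 0 lower, beside 6.75% and 7.39% of 11061 genes. S100b had 40.8 CPM in Setdb1_cKO and 8.53 CPM in control, a ratio of 4.79 (3.17 to 7.49). Gfap had 1606 and 565 CPM, a ratio of 2.84 (2.70 to 3.00), and Aqp4 765 and 391 CPM, a ratio of 1.96 (1.83 to 2.09). Glul was at 1.27 (1.17 to 1.38). Over all gated glia only Gfap (1264 CPM in Setdb1_cKO, 749 CPM in control, ratio 1.69) and S100b (56.0 and 33.7 CPM, ratio 1.66) passed 1.5-fold, beside 6.59% of 13868 genes higher and 5.5% lower. Aqp4 and Glul did not, at ratios of 0.923 and 1.0. The mix of classes in this pool differed, with 620 of 2030 glia astrocyte-like in Setdb1_cKO and 1318 of 3086 in control.

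The contrast between astrocyte-like and radial glia-like cells within each library was flatter in Setdb1_cKO for most of the set. It was flatter too for the summed astrocyte markers of the gate, whose share the split itself limits in both classes. These had 2568 CPM in astrocyte-like and 777 CPM in radial glia-like cells of Setdb1_cKO, and 3185 and 650 CPM in those of control. Their part in the contrast of the 10 genes was not tested. In Setdb1_cKO 6 of the 10 genes were at least 1.5-fold higher in astrocyte-like cells and 1 (Nes) was as far lower, beside 9.5% and 15.3% of 12016 genes. In control the same 6 were higher and 2 (Vim and Nes) lower, beside 11.3% and 21.7% of 12478 genes. Aqp4 was 3.27-fold higher in astrocyte-like than in radial glia-like cells of Setdb1_cKO, and 9.95-fold higher in those of control. The same quotient was 1.74 in Setdb1_cKO and 3.52 in control for Gfap, 2.37 and 4.73 for Glul, and 8.70 and 18 for S100b. Its intervals in the 2 libraries did not overlap for these 4 genes, and the control quotient over the Setdb1_cKO one was 3.04 (2.80 to 3.30) for Aqp4, 2.03 (1.92 to 2.14) for Gfap, 2.0 (1.83 to 2.17) for Glul and 2.07 (1.33 to 3.23) for S100b, with intervals from a normal approximation on the log scale. For the transporter Slc1a2 the quotients were 1.54 in Setdb1_cKO and 2.08 in control, and for Gja1 1.96 and 2.96. Vim ran the other way along the split, at 0.860 in Setdb1_cKO and 0.612 in control, and Nes had 0.637 in both.

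**Figure D3:**
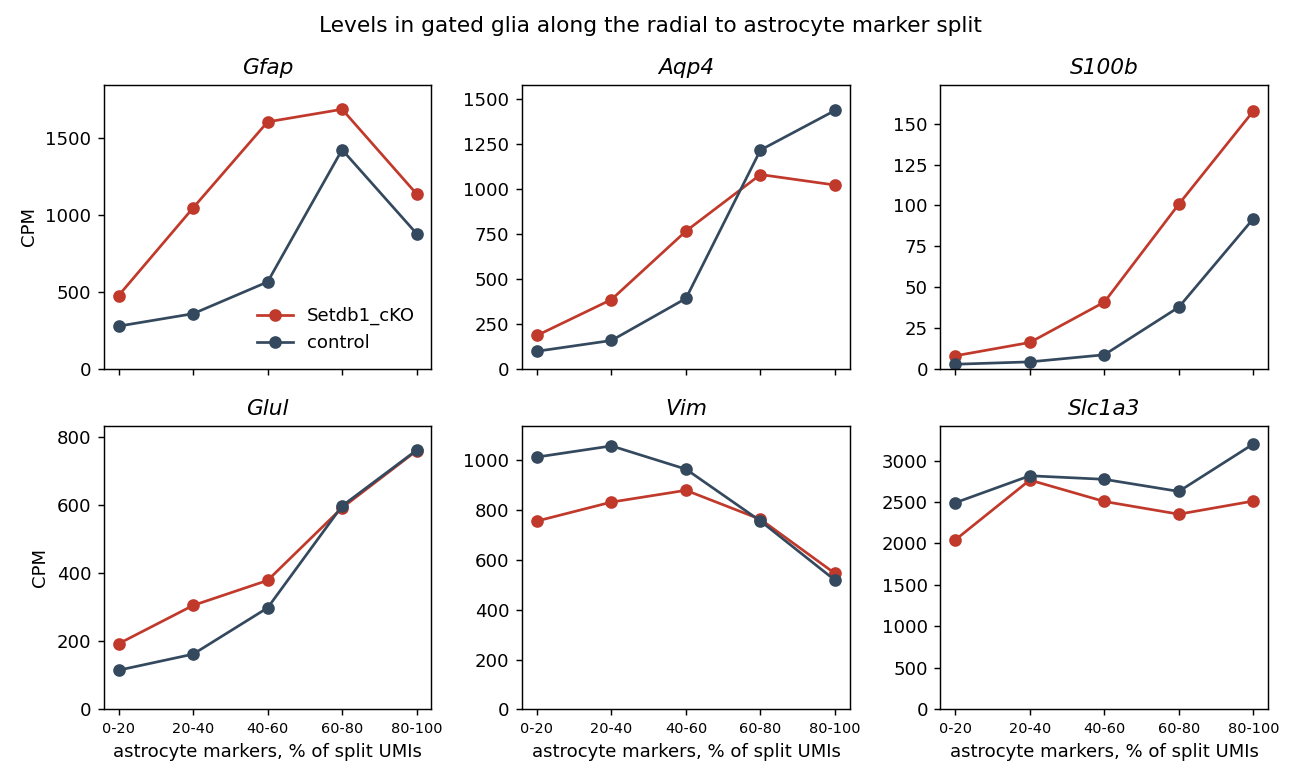
CPM of 6 of the genes in gated glia, by the percent of astrocyte markers among radial glia and astrocyte marker UMIs (5 bins of 20 points), in Setdb1_cKO (red) and control (dark blue). The red line of Gfap is above the blue one in every bin, those of Aqp4 cross between the 40-60 and 60-80 bins, and those of Glul and Vim meet from 60% on.

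The gated glia were also compared in narrower steps of the astrocyte marker share, as the plot of levels along the marker split shows. These bins divide the cells of the classes above by the same markers, so they are no separate check of the class ratios. Some of the markers that set this share themselves differed between the libraries, as given above. Among cells with under 20% astrocyte markers (269 Setdb1_cKO and 463 control cells), Gfap had 476 CPM in Setdb1_cKO and 277 CPM in control (ratio 1.72), and Aqp4 185 and 97.1 CPM (ratio 1.91). From 20% to 40% (623 and 710 cells) Gfap had 1046 and 358 CPM (ratio 2.92) and Aqp4 385 and 157 CPM (ratio 2.45). Gfap and Aqp4 were thus higher in Setdb1_cKO also among cells with the fewest astrocyte markers, where Slc1a3 (ratio 0.820) and Aldoc (0.908) were not.

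From 60% to 80% (416 Setdb1_cKO and 621 control cells), the Gfap levels were 1687 and 1424 CPM (ratio 1.18) and the Aqp4 levels 1080 and 1216 CPM (ratio 0.888). At 80% or more (204 and 697 cells) Aqp4 had 1022 CPM in Setdb1_cKO and 1436 CPM in control (ratio 0.711). S100b was the exception, with ratios of 2.67 and 1.72 in these upper bins, where it had 101 and 158 CPM in Setdb1_cKO and 37.7 and 91.9 CPM in control. Along the 5 bins the Glul ratio was 1.68, 1.88, 1.27, 0.991 and 0.998. The Vim ratio was 0.746, 0.787, 0.912, 1.01 and 1.05, so both were near 1 in the upper bins. Slc1a3 stayed at 0.785 to 0.982 and Aldoc at 0.908 to 1.12 in every bin.

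**Figure D4:**
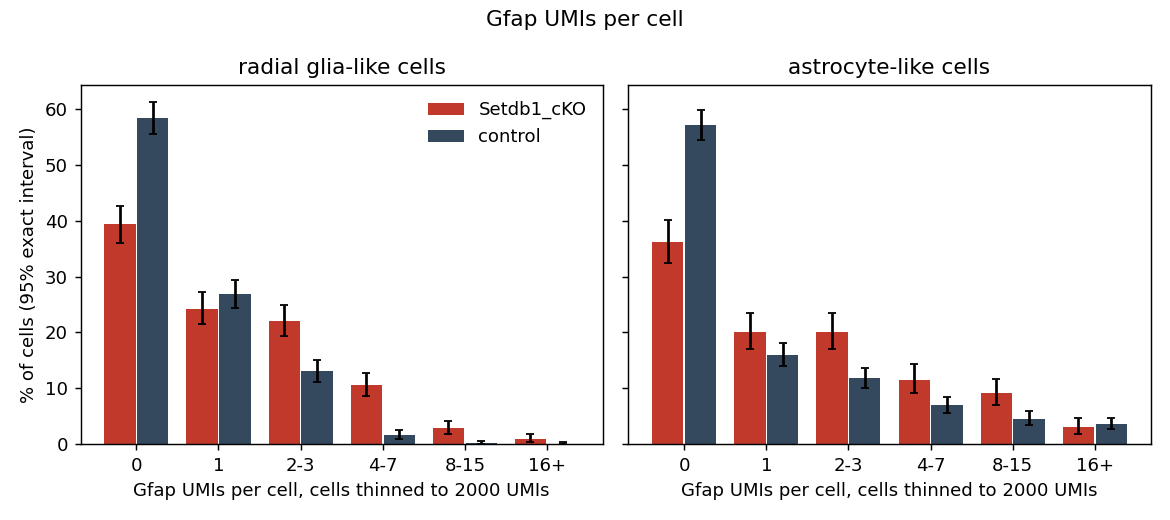
Share of cells (%, with 95% exact intervals) by number of Gfap UMIs after each cell was thinned to 2000 UMIs, in radial glia-like (left) and astrocyte-like cells (right) of Setdb1_cKO (red) and control (dark blue). In both classes fewer Setdb1_cKO than control cells have 0 Gfap UMIs, and in radial glia-like cells the bins from 4 UMIs on are filled mainly in Setdb1_cKO.

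Because Setdb1_cKO cells held more UMIs, shares of cells are given for cells thinned to 2000 UMIs each, which left out 4 Setdb1_cKO and 6 control radial glia-like cells and 3 and 35 astrocyte-like cells. Gfap was found in 60.7% of Setdb1_cKO and 41.7% of control radial glia-like cells (unthinned 85% and 74.3%). Microglia-like cells, which should lack it, had 3.95% and 0.709% at the same depth. The plot of Gfap UMIs per cell shows that the upper end filled as well: 128 of 888 Setdb1_cKO cells and 21 of 1167 control cells held 4 UMIs or more.

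Aqp4 was found in 36.4% of Setdb1_cKO and 21.3% of control radial glia-like cells (unthinned 60.2% and 43.2%), against 0 of 177 and 0 of 141 microglia-like cells, which allows shares of up to 1.69% and 2.13%. Glul was found in 41.9% and 24.0% (unthinned 74.9% and 53.4%), against 3.52% and 8.04% of Cajal-Retzius-like cells, neurons used as its background. S100b was found in only 2.14% and 0.857%, close to the limit that 0 UMIs in microglia-like cells allow, and Vim in 73.8% and 85.1%. More cells, and not a few bright ones alone, hence carried Gfap, Aqp4 and Glul in the Setdb1_cKO library.

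Gfap was uneven among astrocyte-like cells. It was found in 63.9% of Setdb1_cKO and 42.9% of control cells (unthinned 82.9% and 63.2%), and the tenth of cells with most Gfap held 48.6% of its UMIs in Setdb1_cKO and 67.6% in control. Aqp4 was found in like shares, 65.5% and 67.6%. Much of this unevenness lay in cells with a UMI of Myoc, a gene of an astrocyte kind known from the brain surface that was singled out after its values were seen. They made up 15% of Setdb1_cKO and 9.64% of control astrocyte-like cells, with 4506 and 5238 CPM of Gfap. Among all gated glia they made up 9.21% and 4.89%, with 4219 and 4965 CPM. Myoc was looked up in unthinned cells, and the part of the greater depth of Setdb1_cKO cells in these shares was not tested. Without the cells with a Myoc UMI, the Gfap ratio was 1.48 in astrocyte-like cells and 2.42 in radial glia-like cells. Those of Aqp4, S100b and Glul in the radial glia-like class were then 2.20, 3.63 and 1.90.

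The genes were also compared within cells, as rank correlations over the thinned cells of 1 library, which share depth and free RNA. Gfap and Aqp4 went together most in astrocyte-like cells, with Spearman's rho of 0.47 over 617 Setdb1_cKO cells and 0.50 over 1283 control cells. In radial glia-like cells the same pair had 0.35 over 888 Setdb1_cKO cells and 0.08 over 1167 control cells. Cells with a UMI of both made up 28.4% and 10.1% of that class. Slc1a2 and Slc1a3 had 0.43 and 0.31 there. At these low counts a value near 0 says little about a pair.

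Radial glia-like cells were also split by cell cycle transcripts. With 3 or more UMIs of a 10-gene cell cycle list (201 Setdb1_cKO and 344 control cells), Gfap had 266 CPM in Setdb1_cKO and 181 CPM in control (ratio 1.47), and Aqp4 had 75.9 and 78.5 CPM (ratio 0.967). Among cells with 0 such UMIs (553 and 621 cells), Gfap had 1169 and 435 CPM (ratio 2.68) and Aqp4 466 and 177 CPM (ratio 2.64). The interval of the Aqp4 ratio in cells with 3 or more reached from 0.780 to 1.20. Aqp4 was thus above control in the cells with 0 cell cycle UMIs and not in those with most. The Glul ratio was 1.33 in cells with 3 or more and 1.83 in cells with 0. Vim was below control in both, with ratios of 0.649 and 0.823, and only the first was past 1.5-fold.

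Outside gated glia the set was mostly at or below control. Granule lineage neuron-like cells also fell mostly in different joint clusters: 1929 and 1557 of 4130 Setdb1_cKO cells in clusters that held 36 and 22 control cells, and 2396 of 3966 control cells in one that held 48 Setdb1_cKO cells. In this class 5 of the 10 genes were lower and 0 higher, beside 6.67% lower and 9.33% higher of 13937 genes. Vim, which young neurons lose as they mature, had 21 CPM in Setdb1_cKO and 65.6 CPM in control (ratio 0.320), and the other 4 (Nes, Aqp4, Slc1a3 and Aldoc) stood below 50 CPM in both libraries. Glia made up 21.7% of Setdb1_cKO and 28.6% of control cells, and the part of free glial RNA in such low levels was not tested. Intermediate progenitor-like cells had 1 of 9 measured genes lower, beside 7.94% of 11266: Vim had 335 CPM in Setdb1_cKO and 615 CPM in control (ratio 0.545, 0.513 to 0.578). Cajal-Retzius-like neurons, as a background for Vim, had 22.6 CPM in Setdb1_cKO and 17.9 CPM in control.

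In oligodendrocyte progenitor-like cells S100b had 207 CPM in Setdb1_cKO and 123 CPM in control (ratio 1.69, 1.28 to 2.24), the 1 of 7 measured genes past 1.5-fold on the higher side. Of these 7, 5 were lower, among them Vim (180 and 314 CPM, ratio 0.574) and Slc1a3 (190 and 291 CPM, ratio 0.654), beside 5.82% of 6981 genes higher and 6.93% lower. The Olig2 Egfr glial progenitor-like cells, a class led by Olig2 and Egfr, had S100b at 41.5 and 14.4 CPM (ratio 2.88, 1.54 to 5.54). S100b was therefore higher in Setdb1_cKO in both progenitor classes and in the 3 classes of gated glia, and Gfap in the Olig2 Egfr class had 26.7 and 17.8 CPM, a ratio of 1.5 (0.773 to 2.91) from 20 and 21 UMIs. In fibroblast-like and endothelial-like cells Vim was near control, at ratios of 1.05 and 0.920.

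Other genes of the same processes were counted by list, against the shares of all genes given above (6.02% higher and 6.62% lower in radial glia-like cells, 6.26% and 5.84% in astrocyte-like cells). The median log2 ratios of 6 lists in radial glia-like cells were -0.12 for filaments and linkers, 0.02 for glutamate handling, 0.10 for water and endfoot genes, -0.02 for connexins, 0.15 for S100 genes and -0.07 for glycolysis, beside -0.08 for all genes. Of 8 measured filament proteins and linkers in radial glia-like cells, 2 were higher and 1 lower: Synm, encoding synemin, a partner of vimentin and Gfap filaments, had 11.7 CPM in Setdb1_cKO and 6.69 CPM in control (ratio 1.74), Plec, encoding a filament linker, had 24.4 and 16.2 CPM (ratio 1.51), and the nuclear lamin Lmna had 10.3 and 16.2 CPM (ratio 0.637). Synm was also higher in astrocyte-like cells (6.0 and 1.75 CPM, ratio 3.43), where it was the 1 of 8 past 1.5-fold.

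Glutamate and glutamine genes had 2 of 14 higher and 3 lower in radial glia-like cells. The glutamine carrier Slc38a3 had 29.7 CPM in Setdb1_cKO and 15.5 CPM in control (ratio 1.92), and the cystine-glutamate exchanger Slc7a11 had 18.1 and 10.0 CPM (ratio 1.80). The carrier Slc38a2 (51.1 and 80.6 CPM, ratio 0.634) and the aminotransferase Got1 (19.9 and 30.6 CPM, ratio 0.649) were lower. In astrocyte-like cells 3 of 13 were higher and 0 lower, with Slc7a11 at 120.5 and 74.2 CPM (ratio 1.62).

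None of the 13 measured water, potassium and endfoot genes, which include the potassium channel Kcnj10, was past 1.5-fold in radial glia-like cells. Aqp4 was thus past 1.5-fold there while its measured partners were not. In astrocyte-like cells 1 of 14, the aquaporin Aqp11, was lower (14.4 and 21.9 CPM, ratio 0.654). The connexin gene Gjc3 was higher in astrocyte-like cells, at 16.4 CPM in Setdb1_cKO and 1.65 CPM in control (ratio 9.92). Among 7 other S100 genes, S100a4 was higher in radial glia-like cells (78.6 and 44.7 CPM, ratio 1.76), and S100a10 (117 and 48.2 CPM, ratio 2.43) and S100a11 (79.8 and 35.2 CPM, ratio 2.26) in astrocyte-like cells.

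Of 15 glycolysis genes beside Aldoc, 0 were higher in either class and 1 was lower in radial glia-like cells. The cell cycle list lay below control as a whole: in radial glia-like cells all 10 genes had ratios of 0.643 to 0.783 with intervals below 1, and their median log2 ratio was -0.50. Only Mki67 was past 1.5-fold there (162 CPM in Setdb1_cKO, 252 CPM in control). In astrocyte-like cells 8 of 10 were lower, with a median log2 ratio of -0.68 beside -0.01 for all genes, among them Ube2c (38.2 and 82.3 CPM, ratio 0.464). Beyond the split by cell cycle UMIs above, its part in the ratios of Gfap and Aqp4 was not tested.

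Across 26 profiles (13 classes in 2 libraries) and 7467 candidate genes, the gene whose log2(CPM + 1) profile was most like that of Gfap was Car5b (Pearson's r 0.941), and that of Aqp4 Hapln1 (0.941). Slc1a2 was most like Mmd2 (0.981), Slc1a3 like Gas1 (0.966), Aldoc like Glud1 (0.966) and Vim like Lhfp (0.924). Glul was most like Cebpd (0.923), Gja1 like Mgst1 (0.912), S100b like Grin3a (0.908) and Nes like Zfand3 (0.900). Within the set the profiles of Gfap and Aqp4 were nearest (0.928), and those of Slc1a2 and Glul farthest apart (0.0776). These values describe classes that share a library and are no replicates.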

How the data were processed

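Single cells of the mouse dentate gyrus were counted in 1 Setdb1_cKO and 1 control library. The deposited matrices hold raw UMI counts per gene and barcode, which the authors made with Cell Ranger 7.1.0 for mm10 according to the submitters' processing notes, where Seurat is listed too. Whether intronic reads were included, and with which strand setting, is not stated in the labels. Every barcode held 500 UMIs or more.

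Barcodes passed with 1000 or more UMIs, 500 or more genes and a mitochondrial share of 10% or less, and doublets called per library with Scrublet in scanpy 1.11.5 (639 of 11017 scored Setdb1_cKO barcodes, 5.80%, and 646 of 12574 control barcodes, 5.14%) were removed. A cell took the class with the highest marker score if that score was at least 0.3 and 0.1 above the next. The neuron gate led by Neurod6 and Cpne4 is named by those genes because too few of its markers were detected. Summed UMIs of a class in a library were expressed as CPM of the class total, and genes with at least 30 UMIs over both libraries were measured. Intervals of ratios are exact conditional Poisson intervals and those of shares Clopper-Pearson intervals (scipy 1.17.1). Log2 ratios used a pseudocount of 0.5 UMI, and a count of 0 was bounded with 3 counts. The ratio and interval were tested on simulated data. With 1 library per genotype no p-value was computed, and the precision is that of the counts only.

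The 10 genes, the markers, the 7 gene lists and the alternatives were chosen with earlier results of these data known. Named beside the 10 genes were at most 4 genes per list and class, those of highest CPM among genes at least 1.5-fold apart with an interval that excluded 1, Setdb1, and for each of the 10 the genes with the most similar profile, of which the nearest is given. Profiles used genes at 50 CPM or more in some class. Myoc was named after its values were seen. Aldoa was left out because its symbol has 2 identifiers. The full result of the list of connexins and gap junction partners is not reported here. Coordinates came from GENCODE vM21, and promoters from RefSeq, where Aqp4 is named only. Alternatives changed the cell filter, doublets, gates, clustering, scaling and depth.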

Additional observations from a re-analysis of the deposited data

Results flagged for a closer look

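For 5 of the 10 genes the Setdb1_cKO to control ratio lay on opposite sides of 1 in radial glia-like and astrocyte-like cells, with both intervals away from 1. With 1 library per genotype these differences were not tested. Aqp4, the water channel, had a ratio of 2.43 in radial glia-like cells and 0.800 in astrocyte-like cells. Glul had 1.89 and 0.946 in these classes, Gja1 1.29 and 0.856, and Slc1a2 1.14 and 0.847. Vim ran the other way, with 0.778 in radial glia-like cells and 1.09 in astrocyte-like cells. Of these 10 values only those of Aqp4 and Glul in radial glia-like cells were at least 1.5-fold from control. The sides of 2 of the smaller values were not kept in every alternative: Slc1a2 in radial glia-like cells ranged from 0.998 to 1.21, and Vim in astrocyte-like cells from 0.993 to 1.22.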

How the results depend on the processing

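The 4 genes higher in radial glia-like cells stayed past 1.5-fold in 13 of 13 alternatives, with ratios of 2.05 to 2.84 for Gfap, 2.02 to 2.67 for Aqp4, 2.51 to 5.57 for S100b and 1.73 to 2.12 for Glul. S100b in astrocyte-like cells did so too (1.60 to 1.88). Gfap in astrocyte-like cells ranged from 1.12 to 2.0. Of 370 ratios over all alternatives 104 moved beyond the counting interval of the reported value, and of those past 1.5-fold 0 changed sides. The number of genes past 1.5-fold higher in astrocyte-like cells was 1 as reported and 2 with the stricter cell filter, with joint clusters in place of gates, and at the highest of 27 splits that each left out 1 marker. The added gene was Gfap, with ratios of 2.0, 1.52 and 1.53. In pooled glia the number was 2 as reported and 1 among cells with 0 cell cycle UMIs, an alternative chosen after seeing the data, where the Gfap ratio fell just short of 1.5. In radial glia-like cells thinning before summing added Gja1, at 1.5. The causes were not tested. With at least 100 UMIs per gene, the share of all genes past 1.5-fold was 3.37% higher and 4.25% lower in radial glia-like cells, 3.23% and 3.35% in astrocyte-like cells, and 3.96% and 3.61% in pooled glia. With 1000 UMIs per cell Gfap was found in 44.2% of Setdb1_cKO and 28.1% of control radial glia-like cells, and Aqp4 in 26.1% and 11.6%. No paired analysis was possible because each genotype had 1 library. Depth limits S100b most, with 27 control UMIs in radial glia-like cells.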
